A study of Homo sapiens with 6 samples.

Results

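Specific and gelatinase granule genes encode the proteins that a maturing neutrophil packs into its later granules. The 10 genes described here, TCN1, LTF, LCN2, CAMP, OLFM4, PGLYRP1, MMP8, MMP9, CHI3L1 and ARG1, were taken by gene symbol from a table of 58884 genes, and all 10 were found in it. They were followed in HL-60, a RAS-mutated cell line of acute myeloid leukemia, widely used as a model of promyelocytes. One group of 3 libraries (numbered 3, 4 and 5 in their titles) came from cells with a scrambled control shRNA, and the other group of 3 (numbered 1, 3 and 4) from cells with an shRNA against EZH2, the methyltransferase of Polycomb repressive complex PRC2. Both groups were made by lentiviral transduction and puromycin selection, with the drug washed out 2 days before the experiment, and both spent 24 hours in medium with 0.05% fetal bovine serum before polyadenylated RNA was sequenced. Each group is therefore a stable knockdown or control population of 1 cell line, and the labels do not name the hairpin sequence or say whether libraries came from separate transductions.

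Neutrophil granules are made in an order. Azurophil granules, rich in myeloperoxidase and serine proteases, form at the promyelocyte stage, specific granules with lactoferrin and haptocorrin at the myelocyte and metamyelocyte stages, and gelatinase granules last. The granule a protein enters follows largely from when its gene is transcribed, and C/EBP-epsilon (CEBPE) is the transcription factor most closely tied to the specific granule genes. HL-60 is known as a line that makes azurophil proteins but lacks most proteins of the later granules.

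Of the 10 genes, 5 had 0 counts in all 6 libraries (LCN2, OLFM4, PGLYRP1, MMP8 and ARG1), 3 had a few counts but fell below the expression filter (LTF, MMP9 and CAMP), and 2 passed the filter and are called measured here (TCN1 and CHI3L1). TCN1 rose 18.3-fold with the EZH2 shRNA and CHI3L1 did not pass the test. LTF reads summed to 2 in the controls and to 34 with the EZH2 shRNA. For comparison, 25.5% of the 19997 protein-coding genes in the table had 0 counts in all 6 libraries and 59.0% were measured.

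**Figure D1:**
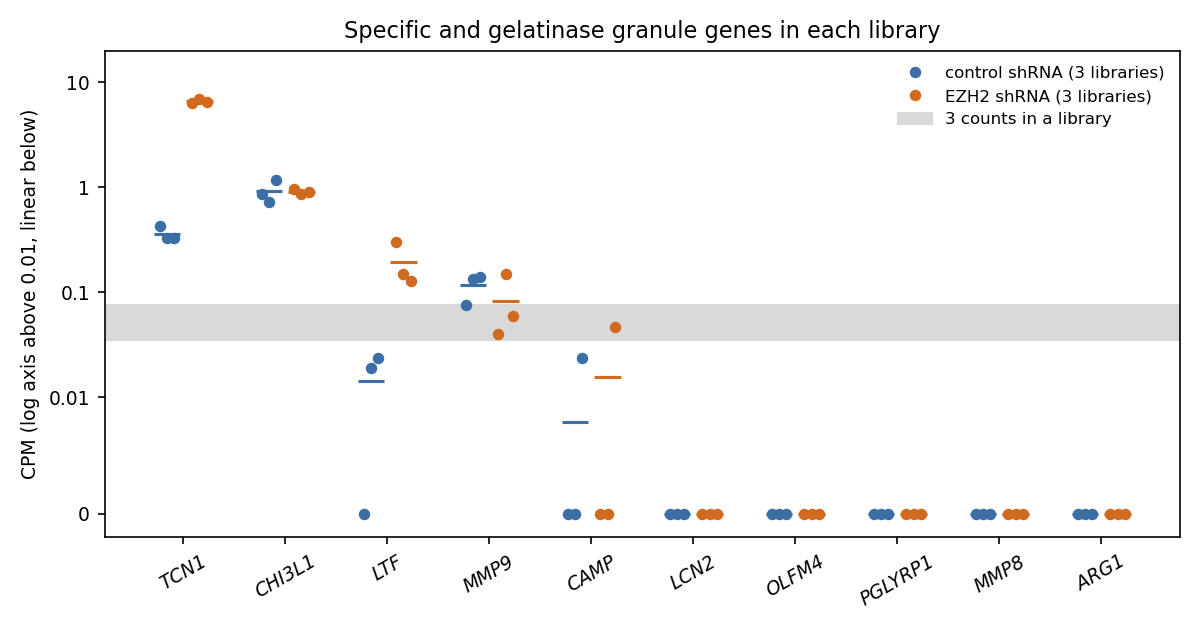
CPM (read counts scaled to normalised library size) of the 10 genes in each library, on an axis that is logarithmic above 0.01 and linear below, with points for libraries, short lines for group means and a grey band for the CPM that 3 counts are worth. TCN1 lies between 6.37 and 6.96 CPM in the 3 EZH2 shRNA libraries and between 0.326 and 0.430 CPM in the controls, whereas 5 genes lie at 0 in all 6 libraries.

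Promoter windows describe the member genes apart from their values. RefSeq windows on GRCh38.p14 were found for 8 of the 10 genes, not for PGLYRP1 and MMP9. The 250 bases before the start site are shown for TCN1, which rose, LTF, which had more counts with the EZH2 shRNA, CHI3L1, which was measured and did not pass, and LCN2, which was at 0. Capitals mark matches, on either strand, to 5 short motifs of factors that act in myeloid cells. C/EBP factors were searched by the letters TTGCNNAA. The letters GAGGAA stand for PU.1 and other ETS factors. RUNX factors were searched by the letters TGTGGT. For GATA factors the letters were AGATAA. For the repressor GFI1 the letters were AAATCA. No matches overlapped each other in these windows.
TCN1 (chr11:59866488-59866737, minus strand): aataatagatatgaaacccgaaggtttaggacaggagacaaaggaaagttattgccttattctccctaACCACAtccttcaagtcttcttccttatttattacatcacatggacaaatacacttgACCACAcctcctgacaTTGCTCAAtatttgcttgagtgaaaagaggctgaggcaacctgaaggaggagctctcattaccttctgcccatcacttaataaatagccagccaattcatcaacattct
LTF (chr3:46464906-46465155, minus strand): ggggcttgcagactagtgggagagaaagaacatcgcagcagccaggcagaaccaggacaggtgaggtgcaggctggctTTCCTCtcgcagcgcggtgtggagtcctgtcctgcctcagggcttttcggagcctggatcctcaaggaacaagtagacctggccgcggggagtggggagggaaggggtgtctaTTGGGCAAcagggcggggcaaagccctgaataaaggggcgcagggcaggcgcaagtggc
CHI3L1 (chr1:203186705-203186954, minus strand): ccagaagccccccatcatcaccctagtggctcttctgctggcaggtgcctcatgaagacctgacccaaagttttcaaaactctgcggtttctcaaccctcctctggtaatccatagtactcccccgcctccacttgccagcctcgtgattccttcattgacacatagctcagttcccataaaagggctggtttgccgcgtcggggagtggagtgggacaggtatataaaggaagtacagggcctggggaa
LCN2 (chr9:128149203-128149452, plus strand): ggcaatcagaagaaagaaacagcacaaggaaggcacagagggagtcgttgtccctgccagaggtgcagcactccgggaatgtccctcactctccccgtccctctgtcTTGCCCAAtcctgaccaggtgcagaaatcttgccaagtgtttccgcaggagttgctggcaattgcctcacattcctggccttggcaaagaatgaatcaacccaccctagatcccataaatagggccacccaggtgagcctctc
RefSeq lists 3 start sites for LTF, and the one shown is that of the MANE Select transcript.

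The C/EBP letters were found in 4 of the 8 windows (TCN1, LTF, LCN2 and MMP8), and in 9.06% of 34943 RefSeq windows of the same length. In the TCN1 window the match TTGCTCAA began 109 bases before the start site, and 2 matches to the RUNX letters began 182 and 125 bases before it. RUNX letters occurred in 3840 of the 34943 windows, and among the 8 member windows only in that of TCN1. The LTF window had a C/EBP match 59 bases and an ETS match 172 bases before the start, the latter motif being found in 23.6% of all windows. No match to any of the 5 motifs lay in the CHI3L1 window. ETS letters were also found in the CAMP and MMP8 windows. The GATA letters were found in the ARG1 window and in 9.19% of all windows. GFI1 letters were found in the OLFM4 and MMP8 windows and in 11.6% of all windows. The TCN1 window was poor in CpG, the dinucleotide that is dense in CpG islands, with 1 CpG in 250 bases against a median of 11 over all windows. Windows with at most 5 CpG made up 6 of the 8, and 38.2% of all windows. CAMP, OLFM4 and ARG1 also had 1 CpG, MMP8 had 0, LCN2 had 4, CHI3L1 had 6 and LTF had 10. A match of letters is a description of these windows and shows no binding.

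The hairpin target was read first. EZH2 was at 149.5 ± 1.61 CPM in the controls and at 79.98 ± 3.01 CPM with the EZH2 shRNA (SD, n = 3 each). The knockdown left 53.5% of the control level of EZH2 (log2 fold change -0.90, edgeR adjusted p = 3.22e-11). Total counts per library lay between 39717343 and 85074624. Of the 16859 measured genes, 46.7% passed the test at an adjusted p of 0.05, with 23.8% higher and 22.9% lower. Markers of promyelocytes were present: 8 of 10 were measured. Their summed level was between 10200 and 11000 CPM in the controls and between 10400 and 10700 CPM with the EZH2 shRNA. Nearly all of it came from MPO, the myeloperoxidase gene, so the sum does not show the other markers. Of the 8, 4 rose (PRTN3, AZU1, MYB and PRSS57), 2 fell (CTSG and MS4A3) and 2 did not pass. ELANE, the neutrophil elastase gene, had no more than 12 counts in any library and KIT no more than 4. Mature neutrophil markers summed to between 28.8 and 34.1 CPM in the controls and between 29.4 and 33.5 CPM with the EZH2 shRNA, mainly from CSF3R. Of these 10 markers 3 were measured: 0 rose, MNDA fell (-0.64, edgeR adjusted p = 0.0155), and CSF3R and CXCR2 did not pass. ALPL and S100A12 were at 0. Since separate cultures are not named for the libraries of a group, p-values here refer to the spread among libraries only, and that spread may be technical.

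TCN1 encodes haptocorrin (transcobalamin I), a secreted vitamin B12-binding protein stored in specific granules. The gene (ENSG00000134827) lies on GRCh38 chromosome 11, 59852800 to 59866489, on the minus strand, and overlaps no other gene of the table. In control libraries 3, 4 and 5 TCN1 had 17, 17 and 14 counts. EZH2 shRNA libraries 1, 3 and 4 had 317, 373 and 550. In CPM, these were 0.430, 0.326 and 0.330 CPM in the controls and 6.37, 6.96 and 6.48 CPM with the EZH2 shRNA. Every EZH2 shRNA library was far above every control library, and libraries within a group lay close together. Over all measured genes, 27.9% had every EZH2 shRNA library above every control by any margin.

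TCN1 rose from 0.362 ± 0.059 to 6.60 ± 0.316 CPM (SD, n = 3 each). For TCN1 the log2 fold change came to 4.19 (95% interval 3.84 to 4.54, SE 0.16, edgeR adjusted p = 5.92e-12). This rise ranked 48 among the 4010 genes that were higher. An exact two-sided permutation test over the 6 libraries gave p = 0.1, the smallest that 3 against 3 can give. On the deposited FPKM values, which are per gene length, TCN1 went from 0.241 ± 0.040 to 4.37 ± 0.219 FPKM. At the control level 11.9% of measured genes had a lower mean FPKM than TCN1, and with the EZH2 shRNA 54.8% did. On a log2(FPKM + 1) scale, where low control values are compressed, the difference was 2.11 (limma adjusted p = 1.99e-06). In bulk RNA, more cells with TCN1 transcripts and more transcripts per cell cannot be told apart.

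CHI3L1 encodes a secreted chitinase-like protein without chitinase activity that is found in specific granules. It lies on chromosome 1, 203178931 to 203186704, on the minus strand. Controls 3, 4 and 5 had 34, 38 and 50 CHI3L1 counts, and EZH2 shRNA libraries 1, 3 and 4 had 48, 46 and 77. Scaled to library size they were 0.861, 0.729 and 1.18 CPM against 0.964, 0.858 and 0.907 CPM, so the EZH2 shRNA libraries lay within the range of the controls. Group means were 0.923 ± 0.231 and 0.910 ± 0.053 CPM (SD, n = 3 each). The log2 fold change of CHI3L1 was -0.01 with a 95% interval of -0.52 to 0.49 (SE 0.24, edgeR adjusted p = 0.973). The data leave room for a change of that size in either direction. Per gene length CHI3L1 and TCN1 were near each other in the controls, at 0.274 ± 0.068 and 0.241 ± 0.040 FPKM, and apart with the EZH2 shRNA, at 0.269 ± 0.015 and 4.37 ± 0.219 FPKM.

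**Figure D2:**
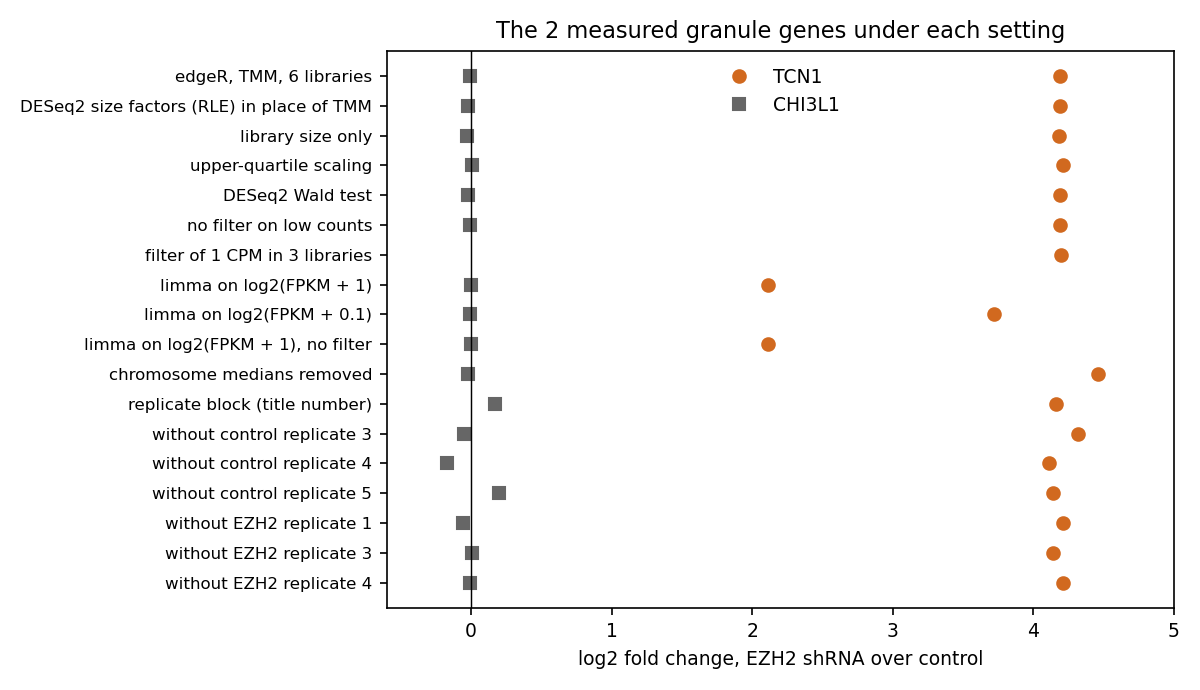
Log2 fold changes, EZH2 shRNA over control, of TCN1 (circles) and CHI3L1 (squares) under the test used and 17 other settings, without error bars. TCN1 stays above 0 throughout, between 2.11 and 4.46, and CHI3L1 lies between -0.17 and 0.20; the filter of 1 CPM in 3 libraries leaves CHI3L1 without a value.

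LTF encodes lactoferrin, the iron-binding protein by which specific granules are usually recognised. The gene lies on chromosome 3, 46435645 to 46485234, on the minus strand. Controls 3, 4 and 5 had 0, 1 and 1 LTF counts, against 15, 8 and 11 in EZH2 shRNA libraries 1, 3 and 4. All 3 EZH2 shRNA libraries were above all 3 controls, at 0.301, 0.149 and 0.130 CPM against 0, 0.0192 and 0.0236 CPM. Among the 12201 genes with a count that fell below the filter, 5.21% had all EZH2 shRNA libraries above all controls. The ratio of summed counts per library size was 12.1, with a counting interval of 3.1 to 104 (exact, 95%). LTF was not tested in the fit of measured genes. Without a filter on low counts it passed (log2 fold change 3.48, edgeR adjusted p = 0.00182, where 14.6% of 29060 genes were higher). LTF also passed with DESeq2 (3.69, adjusted p = 0.0177, where 3499 genes were higher) but not on unfiltered log2(FPKM + 1) (0.06, limma adjusted p = 0.056). With 0 or 1 counts in each control, only a rise of LTF could pass in these fits. The edgeR fit without a filter gave TCN1 an adjusted p of 2.57e-109, against 5.92e-12 with the filter. Its adjusted p-values, here and for CEACAM8 below, may therefore be too small. Per gene length LTF stayed low, at 0.0452 ± 0.0219 FPKM with the EZH2 shRNA, against 4.37 FPKM for TCN1.

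MMP9 encodes gelatinase B, the enzyme that names the gelatinase granules. Its counts were 3, 7 and 6 in controls 3, 4 and 5 and 2, 8 and 5 in EZH2 shRNA libraries 1, 3 and 4, so the groups overlapped. The MMP9 ratio of summed counts per library size was 0.668, with a counting interval of 0.307 to 1.44, so a difference was not detectable at this depth. Of the exonic bases of MMP9 in GENCODE 44, 18.4% are shared with SLC12A5-AS1 on the opposite strand, which had 1 to 12 counts per library. CAMP, the gene of the cathelicidin antimicrobial peptide precursor, had 1 count in control library 5, 4 in EZH2 shRNA library 4 and 0 in the other 4 libraries. That is too few to compare.

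The remaining 5 genes had no read in any library. LCN2 encodes a lipocalin that binds bacterial siderophores, PGLYRP1 a peptidoglycan recognition protein, and OLFM4 the glycoprotein olfactomedin 4 that marks a subset of neutrophils. MMP8 encodes neutrophil collagenase and ARG1 the arginine-cleaving enzyme arginase 1. A count of 0 allows up to 3 counts, which is between 0.0353 and 0.0759 CPM in a single library and 0.00931 CPM over the 6 libraries together. These limits cover counting error only. PGLYRP1 overlaps CCDC61 (373 to 1002 counts per library) and ARG1 overlaps MED23 (2926 to 6640 counts per library) on the opposite strand, but in GENCODE 44 neither pair shares an exonic base. Of the 10 genes, 8 were thus below the filter, and the 1 that passed the test among the 2 measured genes is too few to set against the 23.8% of all measured genes that were higher.

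Beyond the 10 genes, 28 further genes of specific and gelatinase granule proteins were examined, and 16 were measured. Of these 4 rose, 6 fell and 6 did not pass, with a median log2 fold change of -0.10 against 0.01 over all measured genes. HPSE, the heparan sulfate-cleaving enzyme heparanase, fell from 10.7 ± 0.947 to 2.72 ± 0.610 CPM (-1.96 on the log2 scale, SE 0.14, edgeR adjusted p = 1.72e-08). PTX3, a soluble pattern recognition protein, fell by 1.73 on the log2 scale. ITGB2, the shared beta chain of leukocyte integrins, was at -0.57 and LYZ, lysozyme, at -0.53. PLAUR, the urokinase receptor, rose by 0.64. As among the members, several of these genes had 0 counts in all 6 libraries: CD177, CHIT1, CRISP3, FOLR3, ORM1, ORM2 and SLPI.

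CEACAM8, a surface marker held in specific granules, went the other way from LTF and is named here after its values were seen. It had 7, 10 and 5 counts in control libraries 3, 4 and 5 and 0 in each EZH2 shRNA library. The observed CEACAM8 level of the controls was 10.3-fold above the limit of 3 counts over the EZH2 shRNA group. The counting error of the controls is not part of that value. It fell below the filter, and 3.4% of such genes had all EZH2 shRNA libraries below all controls. CEACAM8 passed downward without a filter on low counts (edgeR adjusted p = 1.66e-04, where 13.4% of 29060 genes were lower), with DESeq2 (adjusted p = 7.57e-04) and on unfiltered log2(FPKM + 1) (limma adjusted p = 0.00633). LIPE-AS1 overlaps CEACAM8 on the opposite strand.

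Of 21 azurophil granule genes 16 were measured, of which 7 rose, 4 fell and 5 did not pass (median 0.06). PRTN3, proteinase 3, the protease that cleaves the cathelicidin precursor, rose from 21.8 ± 2.69 to 96.5 ± 6.32 CPM (2.14 on the log2 scale, SE 0.08, edgeR adjusted p = 1.55e-08). The serine protease gene PRSS57 rose by 1.57, AZU1 (azurocidin) by 0.69 and RNASE2 by 0.56. BPI, the bactericidal permeability-increasing protein, fell by 1.30. MPO did not pass, at 9795 ± 435 and 9416 ± 210 CPM (-0.06 on the log2 scale, edgeR adjusted p = 0.405), but passed downward with chromosome medians removed (-0.20, adjusted p = 0.00275). The alpha-defensin genes DEFA1B and DEFA4 had 0 counts, and DEFA1 and DEFA3 no more than 1 in any library. Per gene length MPO was at 2772 FPKM in the controls, against 0.241 FPKM for TCN1 and 0.274 FPKM for CHI3L1.

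**Figure D3:**
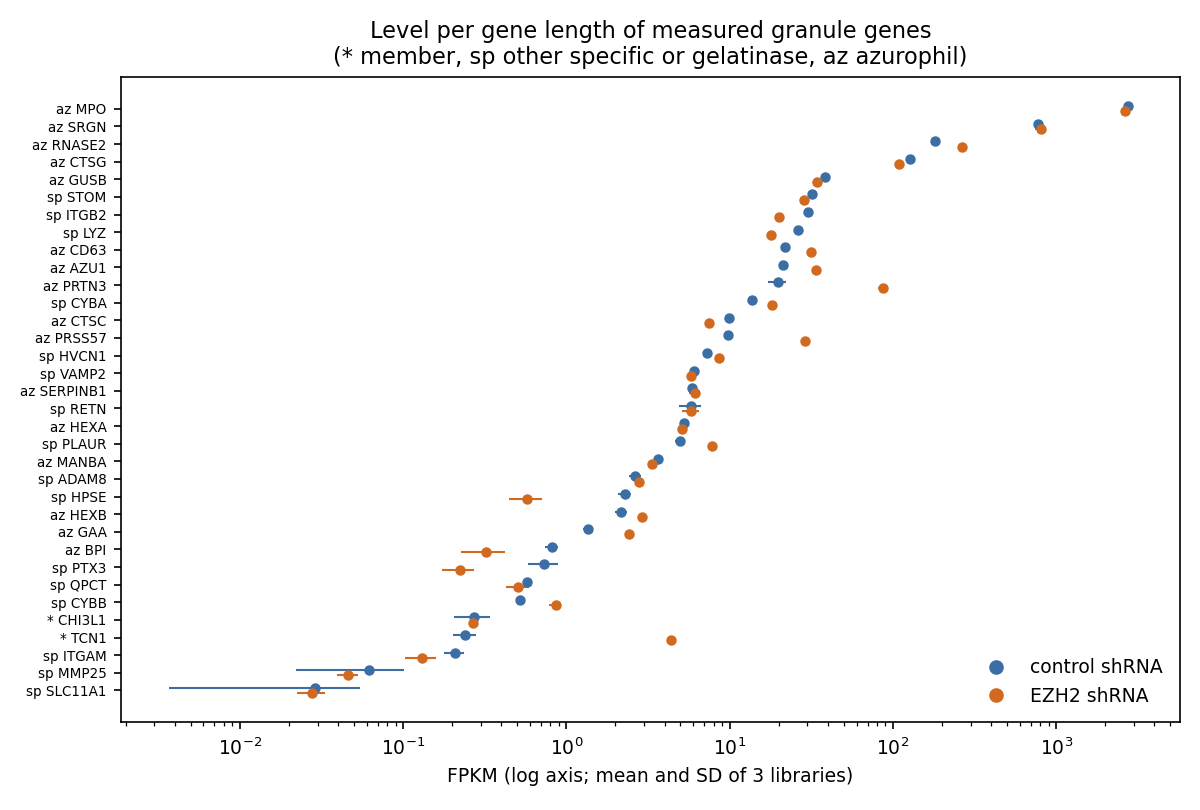
Deposited FPKM of the measured granule genes (logarithmic axis, mean and SD of 3 libraries per group), ordered by control level. TCN1 moves from near the bottom, at 0.241 FPKM, to 4.37 FPKM with the EZH2 shRNA, still far below MPO at 2651 FPKM, while CHI3L1 stays at 0.274 and 0.269 FPKM.

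The transcription factors that act on granule genes were nearly all present, with 18 of 19 measured, of which 8 rose, 4 fell and 6 did not pass (median 0.06). CEBPE was at 340 ± 6.64 CPM in the controls and rose to 442 ± 7.38 CPM (0.38 on the log2 scale, SE 0.04, edgeR adjusted p = 6.13e-07). CEBPA, which acts earlier in granulocyte development, rose by 0.49, and RARA, a retinoic acid receptor, by 0.80. GATA2, a factor of progenitors, mast cells and basophils, rose by 1.83, from 123 to 435 CPM. GATA1, the erythroid and eosinophil factor, had 0 to 5 counts per control library and rose by 2.03 from 0.06 CPM. It passed the filter only through its EZH2 shRNA libraries (10, 14 and 24 counts), so only a rise could be called. MXD1, an antagonist of MYC that increases as neutrophils mature, fell by 0.74 and overlaps SNRNP27 on its own strand. CEBPD, another C/EBP factor, fell from 5.24 to 2.22 CPM. GFI1, a repressor needed for granulocyte development, did not pass (0.03, edgeR adjusted p = 0.622), nor did SPI1, the gene of PU.1 (0.09, 0.0558). SPI1 passed upward in 4 other settings, among them the fit without EZH2 library 1 (0.10, edgeR adjusted p = 0.0358). Another was that with chromosome medians removed (0.36, edgeR adjusted p = 8.26e-07). SPI1 lies on chromosome 11, whose measured genes had a median log2 fold change of -0.23 before that removal. IRF8, a monocyte factor, had 0 counts. CEBPE, GFI1 and SPI1 are named for their roles, after their values were seen.

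The GATA1 log2 fold change lay between 1.49 (without control 5) and 2.91 (without control 3) when single libraries were left out. Its call ended without control 4 (2.00, adjusted p 0.0566), control 5 (1.49, 0.0634) or EZH2 library 4 (1.91, 0.0537). It also ended under DESeq2 (0.0565) and under the block on title numbers (0.0527). The CEBPD call ended without EZH2 library 1 (0.0882) or 3 (0.108) and on unfiltered log2(FPKM + 1) (0.0696).

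**Figure D4:**
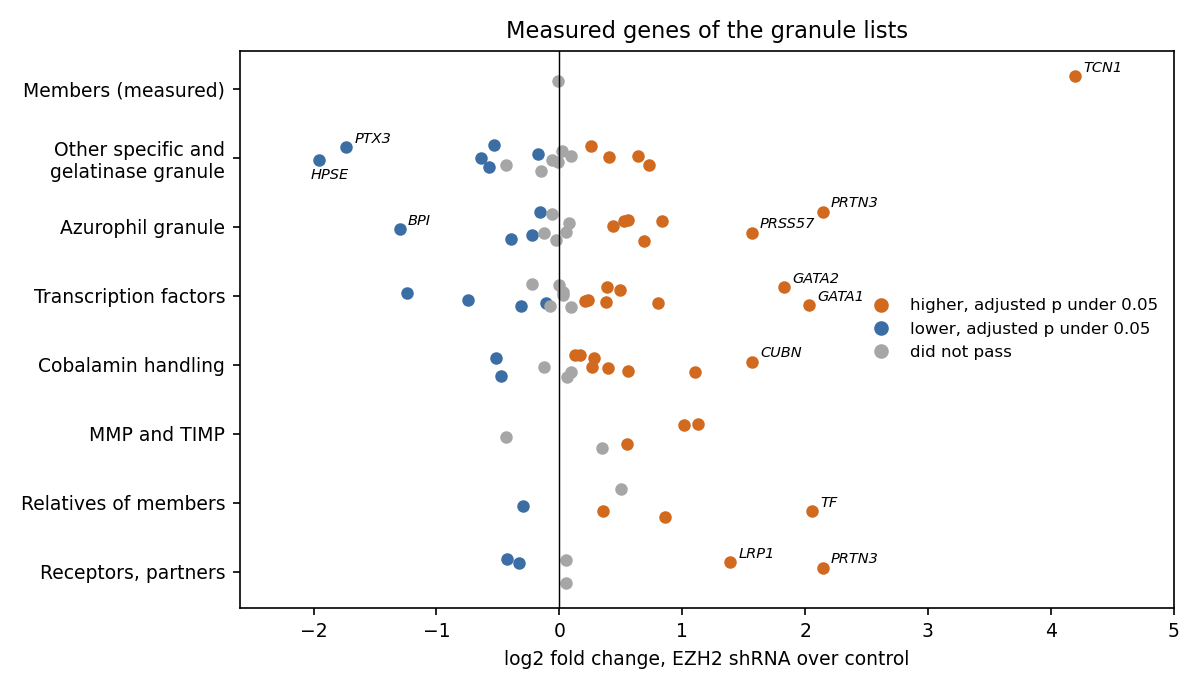
Log2 fold change, EZH2 shRNA over control, of every measured gene of the members and of the 7 lists, 1 point per gene, spread vertically for legibility, orange for higher, blue for lower and grey for genes that did not pass. TCN1 at 4.19 lies to the right of all other points, and each list except that of MMP and TIMP genes holds genes on both sides of 0 that passed.

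Genes that handle vitamin B12 (cobalamin), the ligand of the TCN1 product, were measured in 13 of 16 cases, of which 8 rose, 2 fell and 3 did not pass (median 0.17). CD320, the cell surface receptor that takes up cobalamin bound to transcobalamin II, rose by 0.56, from 35.1 to 52.0 CPM. ABCD4, a lysosomal cobalamin transporter, rose by 0.28. MMUT, the cobalamin-dependent methylmalonyl-CoA mutase, fell by 0.52 and MMADHC, a cobalamin trafficking protein, by 0.48. TCN2, the gene of transcobalamin II, rose by 1.10 from 0.19 CPM and CUBN, the intestinal and renal receptor cubilin, by 1.57 from 0.21 CPM. In controls 3, 4 and 5 TCN2 had 4, 10 and 12 counts and CUBN 11, 8 and 9. Neither reached the filter level in all 3 controls, and both were kept with the help of EZH2 shRNA libraries, so the filter favoured a rise. CBLIF, gastric intrinsic factor and like TCN1 and TCN2 a cobalamin binder, had 0 counts.

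TCN2 lies on the strand opposite PES1, which had 76362 counts against 105, and strand use in counting is not stated. Its call ended without control 3 (adjusted p 0.151), control 4 (0.0944), EZH2 library 3 (0.0778) or EZH2 library 4 (0.0804), with DESeq2 (0.125) and on unfiltered log2(FPKM + 1) (0.132). The list count of 8 rises was 5 without control 4 or EZH2 library 3, 4 without EZH2 library 4 or with DESeq2, and 3 on unfiltered log2(FPKM + 1). The CUBN call ended on log2(FPKM + 1) with the filter (0.138) and without it (0.0582).

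Of 26 genes of other matrix metalloproteinases and of their TIMP inhibitors, 5 were measured, of which 3 rose and 2 did not pass, and 12 had 0 counts in all 6 libraries. TIMP1, a tissue inhibitor that binds MMP9, rose from 42.0 ± 2.73 to 84.8 ± 3.53 CPM (1.01 on the log2 scale, SE 0.05, edgeR adjusted p = 1.37e-10). TIMP2 rose by 0.55 and MMP14, a membrane-bound metalloproteinase, by 1.13. MMP15 did not pass (0.35).

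Relatives of the members by family gave 5 measured genes of 23, with 3 higher, 1 lower and 1 that did not pass. ARG2, the mitochondrial arginase, rose by 0.86, from 1.15 to 2.10 CPM. TF, transferrin, rose by 2.06 from 0.07 CPM, and MELTF, melanotransferrin, by 0.36. Only a rise could be called for TF, which passed the filter through its EZH2 shRNA libraries alone. CHID1, a chitinase-domain protein on chromosome 11, fell by 0.30, and was at -0.03 with chromosome medians removed (edgeR adjusted p = 0.674). ARG2 overlaps VTI1B and MELTF overlaps MELTF-AS1 on the opposite strand, and TF overlaps SRPRB on its own strand. The FPKM fits ended the TF call (adjusted p 0.616 for log2(FPKM + 1), 0.342 for log2(FPKM + 0.1), 0.147 unfiltered). The MELTF call ended without control 3 (0.0723), control 4 (0.112) or EZH2 library 1 (0.139) and in 5 further settings.

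Receptors and partners of the granule proteins gave 6 measured genes of 12, PRTN3 among them, of which 2 rose, 2 fell and 2 did not pass. LRP1, a receptor that clears lactoferrin and proteinases, rose by 1.39 from 0.67 CPM, and overlaps STAT6 on the opposite strand. CD44, which anchors MMP9 at the cell surface, fell by 0.43 and P2RX7 by 0.33. SLC22A17, a receptor for the LCN2 product, and FPR2, a receptor for the cathelicidin peptide, had 0 counts.

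TCN1 lies on chromosome 11, whose 874 measured genes were lower as a whole, with a median log2 fold change of -0.23, 96 higher and 424 lower. Within 500 kb of TCN1 there were 42 other genes in the table, 10 of them measured. Of these 3 rose, 4 fell and 3 did not pass. On the downstream side of TCN1, OSBP, an oxysterol-binding protein, was at -0.46, STX3, a syntaxin of vesicle fusion, at -0.44 and PATL1, an mRNA decay factor, at -0.35. FABP5P7, a processed pseudogene within STX3 whose reads can match FABP5, rose by 0.44. MRPL16, a mitochondrial ribosomal protein gene 55.7 kb from the TCN1 start site, did not pass (-0.10, edgeR adjusted p = 0.126). On the other side lies the MS4A cluster. MS4A3, a granulocyte progenitor gene 190.1 kb away, fell by 0.40. MS4A6A rose by 0.44 and MS4A4E by 1.30 from 0.21 CPM, while MS4A2 (0.17) and MS4A4A (-0.25) did not pass. MS4A4E had 5, 12 and 12 counts in controls 3, 4 and 5 and was kept with the help of EZH2 shRNA libraries, so the filter favoured a rise. MS4A4A and MS4A4E overlap on opposite strands.

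With the median of each chromosome removed TCN1 was at 4.46 (edgeR adjusted p = 3.85e-12). In that setting the gene MRPL16 passed upward (0.17, adjusted p = 0.00915), and the calls of the genes MS4A3 (-0.13, 0.0594) and PATL1 (-0.09, 0.0734) ended. The gene MRPL16 passed downward when EZH2 library 1 was left out (-0.17, 0.00172) and under the block on title numbers (-0.17, 0.00235). The call of MS4A6A ended without control 3 (0.0843) or EZH2 library 4 (0.0821), with DESeq2 (0.0565) and on unfiltered log2(FPKM + 1) (0.0988). The call of MS4A4E ended without control 3 (0.0538) and on unfiltered log2(FPKM + 1) (0.0693). Around MMP8, on the long arm of the same chromosome, 5 of 32 genes within 500 kb were measured, 1 higher and 2 lower, and 23 had 0 counts in all 6 libraries.

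**Figure D5:**
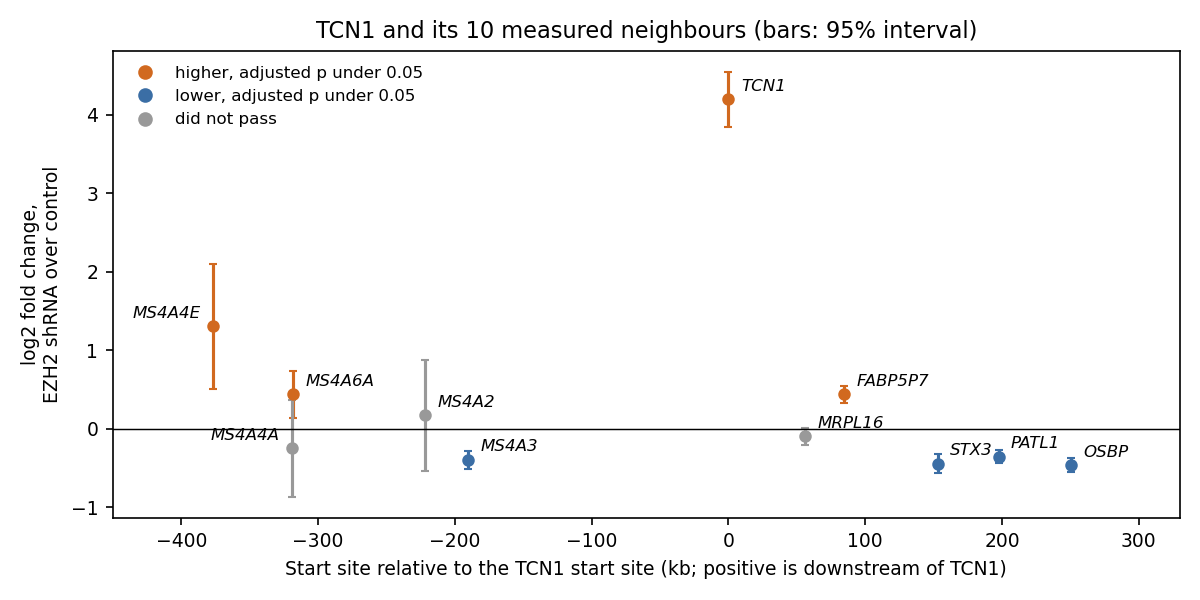
Log2 fold change, EZH2 shRNA over control, with 95% intervals, of TCN1 and its 10 measured neighbours against the distance between start sites in kb, positive on the downstream side of TCN1. TCN1 stands at 4.19, and the next highest gene, MS4A4E, at 1.30.

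Markers of other lineages were read as well. Of 10 eosinophil markers 8 were measured and all 8 rose, where 23.8% of all measured genes were higher. IL5RA (7, 9 and 12 counts in controls 3, 4 and 5) and PRG3 (11, 7 and 11) did not reach the filter level in all 3 controls. They were kept with the help of EZH2 shRNA libraries, so the filter favoured a rise for both, and the share of rises is partly set by it. The sum of the eosinophil markers was between 160 and 164 CPM in the controls. With the EZH2 shRNA it was between 386 and 413 CPM. RNASE2 made up most of the control sum, at 131 CPM, with RNASE3 at 25.1 CPM. CLC, the crystal protein gene, and IL5RA, the interleukin 5 receptor chain, went from 1.08 to 86.5 and from 0.21 to 17.8 CPM. SIGLEC8 and CCR3, surface markers of mature eosinophils, had no more than 7 and 5 counts in any library. Basophil and mast cell markers summed to between 123 and 125 CPM in the controls. With the EZH2 shRNA the sum was between 428 and 452 CPM, and GATA2 made up nearly all of it in both groups. There 3 of 4 measured genes rose, but CPA3 among them passed the filter through its EZH2 shRNA libraries alone. RNASE2 is in both the azurophil and the eosinophil list, and GATA2 is also among the transcription factors. Their part in the TCN1 result was not tested. Of 10 monocyte markers 4 were measured, and 2 rose and 2 fell. CSF1R, the receptor of macrophage colony-stimulating factor, rose by 3.02 from 0.11 CPM, and passed the filter through its EZH2 shRNA libraries alone. The chemokine receptor CX3CR1 rose by 1.72 from 0.20 CPM, while the chemokine receptor CCR2 fell by 1.09 and LYZ by 0.53. CX3CR1 had 11, 7 and 8 counts in controls 3, 4 and 5 and was kept with the help of EZH2 shRNA libraries, so the filter favoured a rise. The sum of the monocyte markers, nearly all of it LYZ, was between 47.6 and 49.3 CPM in the controls. With the EZH2 shRNA it was between 32.5 and 35.7 CPM. Erythroid markers gave 2 measured genes, KLF1 higher and EPOR lower. Lymphoid markers gave 3 measured genes, PAX5 higher and 2 that did not pass. TCN1 is also made by glandular epithelium. All 8 epithelial markers had 0 counts in all 6 libraries, and their bearing on the TCN1 result was not tested.

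The 5 genes with the highest Pearson correlation with TCN1 over log2 CPM in the 6 libraries were SLC45A3 (0.9999), UBXN10 (0.9996), STMN3 (0.9995), NCS1 (0.9995) and OPN3 (0.9994), among 12308 genes with a symbol and a mean of at least 1 CPM. In that set 351 genes had a correlation above 0.99, since 6 libraries in 2 separate groups give any gene with a large, even difference a high value. SLC45A3 rose by 2.70 on the log2 scale and OPN3 by 1.13, with the other three between them, each less than TCN1.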

How the data were processed

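RNA of 6 HL-60 libraries, 3 per group, was measured by single reads of 50 bases. The authors deposited raw counts per gene without normalization, and FPKM values that are proportional to these counts over DESeq2 size factors for 29060 of 29060 genes with a count (relative tolerance 0.001). Per the submitters' processing notes, DESeq2 1.24.0, STAR 2.5.2b, R 3.6.1, Picard 2.18.24 and GRCh38 were used. Which program counted reads, on which annotation and with which strand setting, is not given in the sources used here.

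Genes were kept by filterByExpr (16859 of 58884) and tested with edgeR 4.0.16 (quasi-likelihood, robust, TMM factors, group as the only term, R 4.3.3), with Benjamini-Hochberg adjustment over all genes kept and a threshold of 0.05. A gene low in the controls could pass this filter through its EZH2 shRNA libraries alone, and then only a rise could be called. Where some but not all 3 controls reached the filter level, EZH2 shRNA libraries were still needed, and a rise was favoured. FPKM fits used limma 3.58.1, and DESeq2 1.42.0 was an alternative. Counts of libraries within a group varied beyond sampling noise (chi-square per degree of freedom 3.18 to 17.3). The members and gene lists were chosen with earlier results of these data known. Named were all 10 members, EZH2, up to 4 genes per list with the smallest p, list genes past the threshold with at least a 2-fold change, measured genes within 500 kb of TCN1, the 5 genes most correlated with it and markers that carry the level of a list. Sequences are from RefSeq (GRCh38.p14). Member coordinates matched GENCODE 44 except for the start of ARG1.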

Additional observations from a re-analysis of the deposited data

How the results depend on the processing

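TCN1 rose in all 17 alternatives, with log2 fold changes between 2.11 and 4.46 and adjusted p between 2.57e-109 and 4.16e-05. Leaving out single libraries gave TCN1 values from 4.11 to 4.32. The count of 1 member higher became 2 with DESeq2 and with no filter on low counts, through LTF, and the count of 0 members lower held in all 17. With silence set at no more than 10 counts, 1 member (LTF) in place of 3 counted as detected below the filter. CHI3L1 passed in none of the 16 fits that held it, and its sign turned with upper-quartile scaling (0.01), with the replicate block (0.17) and without control 5 or EZH2 library 3 (range -0.17 to 0.20 over single libraries left out). GFI1 turned without EZH2 library 3 (range -0.02 to 0.04 over single libraries left out). With chromosome medians removed the sign of MS4A4A (0.01) and MRPL16 (0.17) turned, and the count of lower relatives became 0. Higher relatives numbered 1 on log2(FPKM + 1), on log2(FPKM + 0.1) and on unfiltered log2(FPKM + 1). Higher cobalamin genes numbered 4 with DESeq2, 3 on unfiltered log2(FPKM + 1), and 4 to 8 with single libraries left out, and lower transcription factors 2 on unfiltered log2(FPKM + 1). Within 250 kb, 1 neighbour of TCN1 was higher, and 0 neighbours of MMP8 were higher and 1 lower. For these counts the cause was not tested, except that a smaller window holds fewer genes. Of 50 genes followed in this way, 33 kept their call and direction in every alternative. Title numbers 3 and 4 occur in both groups, and deviations from the group means correlated at 0.107 and 0.119 in these pairs against -0.141 to 0.053 in the others, but no label says that the numbers pair the libraries. With the replicate block TCN1 was at 4.16, and 3858 genes were higher and 3863 lower, against 4010 and 3856 without it. Depth limits the 8 members below the filter, which had between 0 and 36 counts over the 6 libraries.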
